A study of Mus musculus with 27 samples.

Results

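The ATP-binding cassette (ABC) transporter family was followed across a 9-group dose series of the dioxin TCDD, a potent ligand of the aryl hydrocarbon receptor (AhR), in mouse colon. Members were every protein-coding gene whose symbol begins with Abca to Abcg followed by a number, with 10 or more counts in at least 3 of the 27 libraries. Of 49 such genes among 46078 gene rows, 39 were members: 11 of subfamily A, 8 of B, 9 of C, 3 of D, 1 of E, 3 of F and 4 of G. The 10 genes under the count minimum (Abca4, Abca6, Abca15, Abca16, Abca17, Abcb5, Abcb11, Abcc12, Abcg3 and Abcg4) never exceeded 14 counts in a library. At the edge of the rule, Abca13 reached 10 counts in 17 libraries on the inside, and Abcb11, the bile salt export pump, in 2 on the outside. All 39 members also passed the filter on low counts and were tested.

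RNA was sequenced from epithelium scraped from the colon of male C57BL/6 mice, 3 mice in each of 9 groups. Mice were gavaged with sesame oil vehicle or with TCDD at 1 of 8 doses (0.01, 0.03 and 0.1 μg/kg, then 0.3, 1 and 3 μg/kg, then 10 and 30 μg/kg), every 4 days for 7 gavages over 28 days, from 28 to 56 days of age. All groups shared sex, strain, route and schedule, the labels name no engineered allele, and the paper places tissue collection in the first hours after lights on. Scrapings are bulk tissue, so fewer cells of a type and less RNA per cell cannot be told apart in any value given here.

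ABC proteins couple ATP hydrolysis by a pair of nucleotide-binding domains to movement of a substrate across a membrane. Subfamily A and most of G move lipids and sterols, B and C hold the classical drug efflux pumps together with mitochondrial and ion channel-regulating members, and D serves peroxisomes. Subfamilies E and F lack membrane domains and act on ribosomes. In gut epithelium, ABCB1 and ABCG2 at the luminal membrane return drugs and dietary toxicants to the lumen, and ABCC3 at the basolateral membrane passes glucuronide conjugates to the blood.

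Libraries held 9305441 to 14371035 gene counts. Cyp1a1, the classical AhR target, averaged 0.0655 CPM (read counts scaled to library size) in vehicle mice and 2199.8 CPM at 30 μg/kg, and 5 of 5 tested genes of the AhR battery rose at that dose. Colonocyte markers summed to 8774 to 9193 CPM in vehicle mice and 8489 to 9642 CPM at 30 μg/kg, with none at 0. Markers of other cells were present: 9 smooth muscle and fibroblast genes summed to 96.3 to 132 CPM in vehicle mice and 129 to 683 CPM at 30 μg/kg, and 1 of the 9 (Dcn) passed the test. Tuft cell markers summed to 67.3 to 79.2 CPM in vehicle mice and 20.2 to 30.9 CPM at 30 μg/kg, and 4 of 4 fell. Crypt stem cell markers summed to 78.6 to 89.0 CPM and 40.5 to 57.2 CPM, and Axin2 and Lgr5 of the 4 fell. A clock score, built from 9 clock genes that are high at day end and 5 that are high at night end, lay between -2.72 and -2.47 in vehicle mice and between 0.90 and 2.19 in every mouse at 1 μg/kg or above. One mouse at 0.01 μg/kg (replicate 3) stood apart from the lower doses with a score of 1.45. By the first or second use of each index barcode, counted in accession order, the libraries were also put into 2 index sets. Set 1 held 16 mice (every mouse up to 0.3 μg/kg plus replicate 1 of 1 μg/kg). Set 2 held 11 mice (all higher doses plus replicates 2 and 3 of 1 μg/kg). Accession order follows dose, and the sample labels name no pool. Only the group at 1 μg/kg holds both sets, so in comparisons of groups a term for the index set rests on its 3 mice. In comparisons of vehicle with 3 to 30 μg/kg, index set, clock score and dose move together and cannot be told apart. Among the mice at 3 to 30 μg/kg the index set is the same and the clock score lies between 1.53 and 2.19.

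Levels between genes were ranked per length, as CPM per kilobase of exon. In vehicle mice Abcb1a, the main P-glycoprotein of mouse gut, stood highest at 210.1 ± 11.7 CPM per kilobase (SD, n = 3), above 99.3% of the genes tested. Abcc3, the basolateral conjugate exporter MRP3, followed at 98.5 ± 3.84 CPM per kilobase. Abcd3, the peroxisomal importer PMP70, came next at 38.2 ± 0.260 CPM per kilobase, and then Abcf1, a translation factor, at 21.3 ± 1.14 CPM per kilobase. Abcg2, the luminal breast cancer resistance protein, followed at 15.0 ± 0.381 CPM per kilobase. These 5 were separated from each other by more than the spread of the 3 mice, whereas Abcg2, Abca3 (14.4 ± 0.508 CPM per kilobase) and Abca12 (13.8 ± 4.65 CPM per kilobase), both lamellar body lipid transporters, overlapped.

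**Figure D1:**
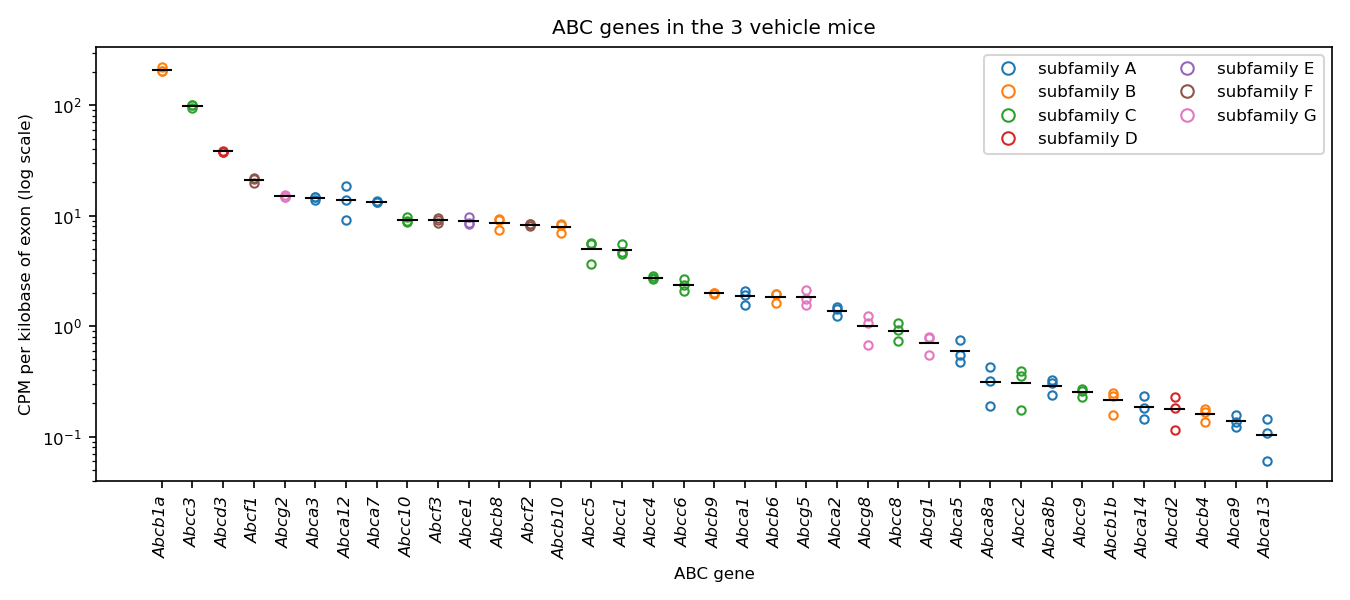
Levels of 37 of the 39 ABC genes in the 3 vehicle mice, as CPM per kilobase of exon on a log scale, ordered from highest to lowest. Each circle is a mouse, coloured by subfamily, and each bar the mean. Abcb1a (210.1) and Abcc3 (98.5) lead, and Abca13 (0.104) is lowest.

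Of the family's summed CPM in vehicle mice, which is not scaled for length, Abcb1a alone gave 35.9% and Abcc3 17.5%. The 11 members of subfamily A together gave 14.9%. At the other end, the 10 lowest members lay at or below the 9.74 percentile of the genes tested. They were Abca8a (0.310), Abcc2 (0.308), Abca8b (0.290), Abcc9 (0.252), Abcb1b (0.213), Abca14 (0.187), Abcd2 (0.176), Abcb4 (0.160), Abca9 (0.138) and Abca13 (0.104 CPM per kilobase). Abcc2 and Abcb4 encode pumps best known from the canalicular membrane of liver. The summed CPM of the family was 3202 ± 129 in vehicle mice and 3763 ± 390.3 (SD, n = 3) at 30 μg/kg. Without Abcb1a it was 2051 ± 94.1 against 2224 ± 173 CPM, and the groups' SDs reach each other in the latter case.

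The dose question was how far members moved from vehicle at each dose. A gene was called when the edgeR quasi-likelihood test, adjusted by the Benjamini-Hochberg method over 16496 genes, gave an adjusted p under 0.05 and the fold change was at least 1.5. At 0.01 to 1 μg/kg 0 of 39 members were called, where 0.200% of all genes passed at any of these doses. DESeq2 called 1 member there by the same rule, Abcc2 at 1 μg/kg (DESeq2 adjusted p = 0.00153), and no share of all genes is given for that fit. At an unadjusted p under 0.05 edgeR passed 4 members at 0.01 μg/kg and 0 at 0.03 μg/kg, where 6.35% and 4.64% of all genes passed. It passed 3 members at the dose of 0.1, 2 at that of 0.3 and 3 at that of 1 μg/kg, where 6.37%, 5.19% and 9.80% of all genes did. At 3 μg/kg 1 member was called (Abcc2, 2.56% of members), with 0.697% of all genes called, and at 10 μg/kg again 1 (Abcc2), with 1.78% of all genes called.

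At 30 μg/kg 4 members were called (10.3% of members), with 6.16% of all genes called. Abcc2, Abca8a and Abcc9 rose, where 2.95% of all genes were called higher, and Abcc6 fell, where 3.21% were called lower. The median log2 fold change of the 39 members at 30 μg/kg was 0.21, with 26 above 0, beside a median of -0.00 over all genes tested. Without the fold minimum 8 members were higher at an adjusted p under 0.05, where 6.00% of all genes were, and 1 was lower, where 5.02% were. By mouse, 14 members had all 3 values at 30 μg/kg above all 3 in vehicle (35.9% of members), where 14.5% of all genes did, and 3 members had them all below (7.69% of members), where 15.2% of all genes did.

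**Figure D2:**
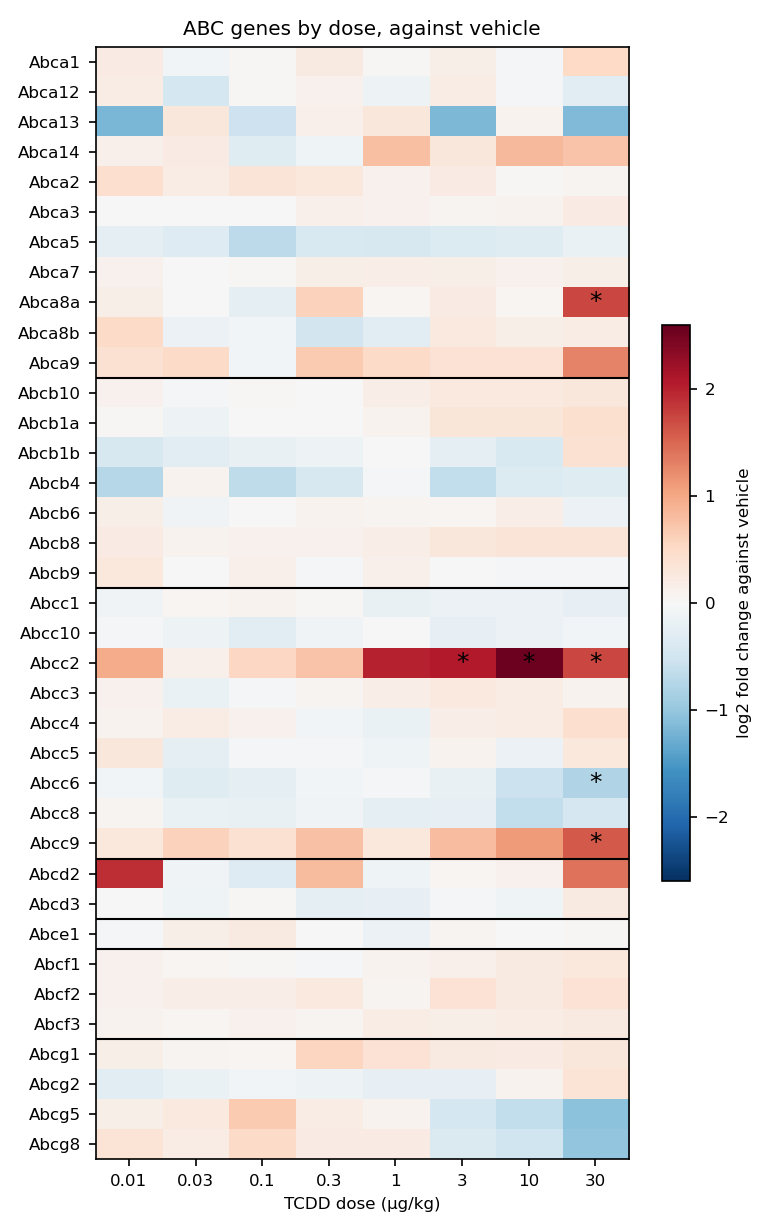
Log2 fold change of 37 of the 39 ABC genes (rows, by subfamily A to G from top to bottom, split by lines) against vehicle at each TCDD dose (columns, μg/kg). Stars mark genes called by edgeR (adjusted p under 0.05 and at least 1.5-fold). Abcc2 carries stars at 3, 10 and 30 μg/kg, and Abca8a, Abcc6 and Abcc9 at 30 μg/kg alone.

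Abcc2 (chr19:43782192-43840740, forward strand, GRCm38) encodes MRP2, which exports glutathione, glucuronide and sulfate conjugates and bilirubin across the apical membrane. It is shown here because it was the one member called at more than a single dose. The 134 bases below lie before both the RefSeq and the GENCODE start of the gene, at chr19:43782058-43782191 on the forward strand, from RefSeq sequence of GRCm38.p6. Capitals would mark GCGTG, the core of the dioxin response element, CACGTG, the clock factors' E-box, or TTANGTAA, the D-box of the DBP family, on either strand, and none of the 3 occurs in these letters.
Abcc2 upstream: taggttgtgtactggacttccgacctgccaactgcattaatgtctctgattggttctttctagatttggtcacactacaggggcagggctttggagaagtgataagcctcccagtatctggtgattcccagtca

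In vehicle mice Abcc2 measured 1.48, 3.37 and 3.04 CPM, from 15, 32 and 31 counts. It measured 13.0, 5.77 and 12.6 CPM at 1 μg/kg, and 11.6, 6.26 and 15.0 CPM at 3 μg/kg. The values were 19.5, 11.2 and 15.2 CPM at 10 μg/kg, and 8.85, 9.95 and 7.41 CPM at 30 μg/kg. At each dose from 1 μg/kg up, all 3 mice were above all 3 vehicle mice, and the values at 10 and 30 μg/kg did not overlap each other, the higher dose being lower. Below 1 μg/kg the mice overlapped vehicle at each dose, from 2.04 CPM (0.03 μg/kg) to 8.26 CPM (0.01 μg/kg).

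Abcc2 was 4.01-fold higher at 1 μg/kg (log2 fold change 2.00, SE 0.45, edgeR adjusted p = 0.0570), which missed the threshold. It rose 4.18-fold at 3 μg/kg (log2 2.06, SE 0.45, edgeR adjusted p = 0.0199) and 5.81-fold at 10 μg/kg (log2 2.54, SE 0.44, edgeR adjusted p = 0.00216). At 30 μg/kg it rose 3.32-fold (log2 1.73, SE 0.45, edgeR adjusted p = 0.0159). The call at 3 μg/kg was lost without vehicle replicate 1 or 3 or without replicate 1 or 3 of that dose (edgeR adjusted p = 0.0581 to 0.145), and at 30 μg/kg without vehicle replicate 1 (edgeR adjusted p = 0.0859) or replicate 2 of that dose (edgeR adjusted p = 0.0501). With a term for the index set no dose was called, although the log2 fold changes were larger, with a wider SE. For the doses of 3, 10 and 30 μg/kg they were 2.55, 3.03 and 2.22 (SE 0.72 each), with edgeR adjusted p values of 0.120, 0.0576 and 0.0773. Colonocyte markers, which summed to 8774 to 9193 CPM in vehicle mice, lay wholly above that range in the mice given 3 μg/kg (9929 to 11802 CPM) or 10 μg/kg (9783 to 12227 CPM), with 0 of 7 markers called at either dose, and their part in the Abcc2 values was not tested.

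The 13 mice with a clock score above 0 had 5.77 to 19.5 CPM of Abcc2, and the 14 mice below 0 had 1.48 to 7.18 CPM. The mouse at 0.01 μg/kg with the clock score of 1.45 had 8.26 CPM, the highest Abcc2 value of the 15 mice at vehicle to 0.3 μg/kg. The mouse at 0.3 μg/kg with 7.18 CPM had the next highest clock score of those 15 (-0.42). All 3 mice at that dose, with scores of -1.22 to -0.42, averaged 4.37 CPM, beside a median of 3.27 CPM over the 15. Within 30 μg/kg the order was not kept. The mice at 2.17 and 2.19, the highest scores of all, had less Abcc2 than the mouse at 1.53. With the clock score as a covariate the log2 fold change of Abcc2 was 0.70 (SE 0.69) at 10 μg/kg and -0.13 (SE 0.70, edgeR adjusted p = 0.943) at 30 μg/kg, and no dose was called. These values depended on the 0.01 μg/kg mouse with the high score. Without it they were -1.60 (SE 1.36) and -2.45 (SE 1.37), not called. The mice fall into separate clusters of clock score, so no correlation is given, and the part of the clock genes in the Abcc2 values was not tested further.

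**Figure D3:**
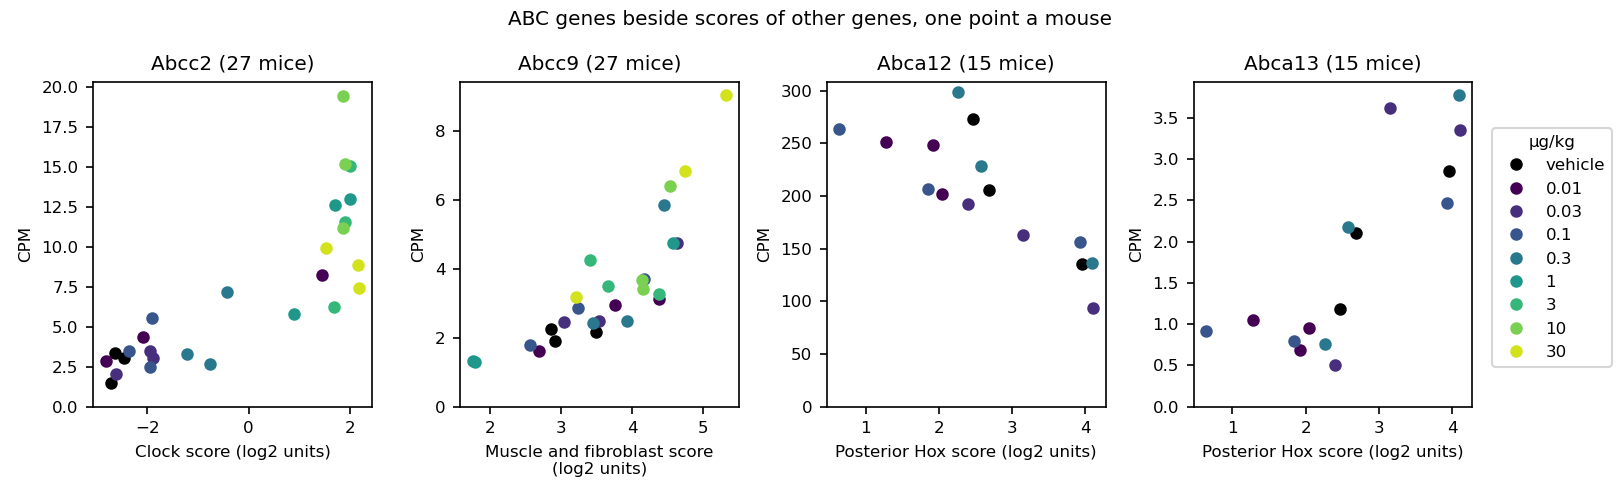
Abcc2 and Abcc9 in all 27 mice and Abca12 and Abca13 in the 15 mice at vehicle to 0.3 μg/kg (CPM, vertical axes) against a clock score, a smooth muscle and fibroblast score and a posterior Hox score (horizontal axes, log2 units). Each point is a mouse, coloured by dose. The 0.01 μg/kg mouse at a clock score of 1.45 lies at 8.26 CPM of Abcc2, and Abca12 falls and Abca13 rises along the Hox score.

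Abca8a (chr11:110025634-110095978, reverse strand), a lipid transporter of a gene cluster that also holds Abca5, Abca8b and Abca9, measured 1.18, 2.00 and 2.65 CPM in vehicle mice. At 30 μg/kg it measured 5.25, 3.09 and 11.1 CPM. All 3 mice were above vehicle, with replicate 3 far above the others, and no group from 0.01 to 10 μg/kg was called. The rise was 3.31-fold (log2 1.73, SE 0.54, edgeR adjusted p = 0.0426). The call was lost by limma voom (adjusted p = 0.0717) and with only the groups compared (edgeR adjusted p = 0.0709). The E-box found before its start is shown in capitals, 136 bases before the RefSeq start on the reverse strand (chr11:110095979-110096187, GRCm38.p6).
Abca8a upstream: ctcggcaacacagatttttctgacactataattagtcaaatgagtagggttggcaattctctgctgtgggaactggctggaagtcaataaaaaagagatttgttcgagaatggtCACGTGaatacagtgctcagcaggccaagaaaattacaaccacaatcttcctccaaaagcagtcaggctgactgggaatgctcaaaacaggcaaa

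Abcc9 (chr6:142587862-142702315, reverse strand) encodes SUR2, the sulfonylurea receptor that regulates ATP-sensitive potassium channels of muscle and pericytes. It measured 2.16, 1.90 and 2.26 CPM in vehicle mice, and 6.83, 3.18 and 9.05 CPM at 30 μg/kg. Here too all 3 mice were above vehicle and replicate 3 was highest. The rise was 3.00-fold (log2 1.59, SE 0.47, edgeR adjusted p = 0.0316), a call lost by limma voom (adjusted p = 0.0584). Kcnj8, the channel pore that SUR2 pairs with, rose as well, from a mean of 0.395 to 1.93 CPM (log2 fold change 2.24, SE 0.52, edgeR adjusted p = 0.00802). Its vehicle level was near the floor of counts, and no covariate or left-out fit is given for it.

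Abca9 had the next largest log2 fold change among members with all mice above vehicle, 1.29 (SE 0.50), and did not pass (edgeR adjusted p = 0.0941). Its values were 1.08, 1.26 and 0.982 CPM in vehicle mice and 2.95, 1.51 and 3.71 CPM at 30 μg/kg. Abca8b, their neighbour, had a log2 fold change of 0.19 (SE 0.37).

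Markers of muscle, fibroblasts and vessels were higher on average at this dose, with 1 of 9 and 2 of 5 called. The muscle and fibroblast score was 4.75, 3.20 and 5.32 in the 3 mice at 30 μg/kg and 2.85 to 3.49 in vehicle mice. The order of the 3 mice at 30 μg/kg is that of Abca8a and Abcc9, and the part of these cells in the values was not tested. All 9 markers of that list had positive log2 fold changes (median 2.18). Of 5 endothelial and pericyte markers, which summed to 29.3 to 36.0 CPM in vehicle mice and 33.8 to 107 CPM at 30 μg/kg, Cdh5 and Kdr rose. With this score as a covariate Abca8a had a log2 fold change at 30 μg/kg of 0.73 (SE 0.47, edgeR adjusted p = 0.389) and Abcc9 of 0.60 (SE 0.28, edgeR adjusted p = 0.222), neither called. Without replicate 3 of 30 μg/kg they were 1.11 and 1.26, neither called. Each call was also lost without any 1 vehicle mouse (edgeR adjusted p = 0.0660 to 0.158 for Abca8a and 0.0796 to 0.0930 for Abcc9). The Abcc9 call was lost without replicate 1 of 30 μg/kg (edgeR adjusted p = 0.0606), and that of Abca8a without replicate 2 of 3 μg/kg (edgeR adjusted p = 0.0501). With the index term Abca8a was at 2.55 (SE 1.01, edgeR adjusted p = 0.147), not called, and Abcc9 at 3.44 (SE 0.74, edgeR adjusted p = 0.0157), called. That term rests on the 3 mice at 1 μg/kg. Their muscle and fibroblast scores were 4.57 (index set 1), 1.76 and 1.79 (both index set 2), and the part of these scores in the 2 values was not tested. With the clock score Abca8a and Abcc9 were at 1.86 (SE 1.16, edgeR adjusted p = 0.397) and 1.94 (SE 0.98, edgeR adjusted p = 0.287), neither called. When the 0.01 μg/kg mouse with the high score was left out as well they turned to -1.84 (SE 2.29) and -1.08 (SE 1.89).

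Abcc6 (chr7:45967555-46030302, reverse strand), the MRP6 transporter through which cells release ATP, was the one member called lower. It measured 11.8, 13.6 and 15.3 CPM in vehicle mice and 7.91, 8.03 and 7.76 CPM at 30 μg/kg, a separation with a narrow spread at the top dose. Expression fell 1.72-fold (log2 fold change -0.78, SE 0.20, edgeR adjusted p = 0.0156). At 10 μg/kg, 12.3, 7.88 and 7.68 CPM, with 1 mouse in the vehicle range and the other two below it, was not called. The call at 30 μg/kg was lost without vehicle replicate 3 (edgeR adjusted p = 0.0709) or replicate 3 of that dose (edgeR adjusted p = 0.0502), with a log2 fold change of -0.68 or -0.76. With the muscle and fibroblast score as a covariate it was -0.66 (edgeR adjusted p = 0.0715). With the index term it was -0.82 (SE 0.37, edgeR adjusted p = 0.205) and with the clock score -1.10 (SE 0.37, edgeR adjusted p = 0.101), not called at a fold as large or larger. Tuft and crypt stem cell markers were lower at the same dose, and their part in the Abcc6 values was not tested. A two-sided exact permutation test over mice gave p = 0.1 for each of the 4 called members, the smallest p that 3 against 3 mice allow.

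**Figure D4:**
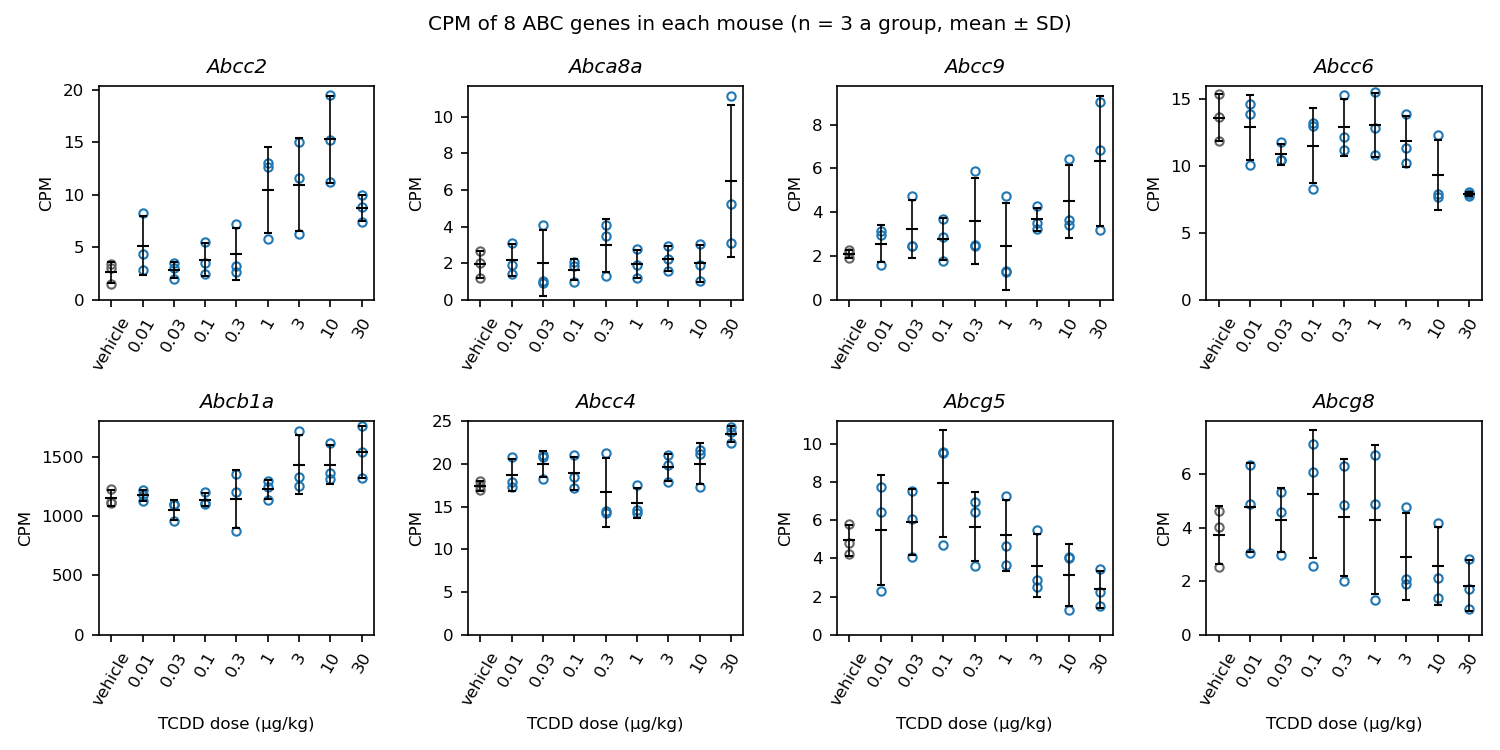
CPM of 8 ABC genes in each mouse (circles, vehicle in grey) by TCDD dose (μg/kg), with the mean and SD of the 3 mice. Abcc2 stands above vehicle from 1 μg/kg up, Abca8a and Abcc9 are highest at 30 μg/kg with a wide spread, and Abcc6 lies between 7.76 and 8.03 CPM at that dose.

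Neither of the 2 main pumps that face the lumen was called at any dose without a covariate. Abcb1a measured 1110.1, 1225 and 1118 CPM in vehicle mice, and 1322, 1757 and 1538 CPM at 30 μg/kg. The groups did not overlap, and the 1.34-fold difference (log2 0.42, SE 0.14, edgeR adjusted p = 0.0479) was under the fold minimum. Abcg2 measured 121, 126 and 120.0 CPM in vehicle mice and 134, 198 and 134 CPM at 30 μg/kg, which did not pass (log2 0.35, SE 0.17, edgeR adjusted p = 0.192). With the clock score as a covariate Abcg2 was called at that dose (log2 1.17, SE 0.26, edgeR adjusted p = 0.0238), where 2.56% of all genes were, and it was not called with the clock score when the 0.01 μg/kg mouse with the high score was left out (log2 0.97, SE 0.56, edgeR adjusted p = 0.578). Abcb1b, the second mouse P-glycoprotein gene, had between 0.891 and 3.18 CPM over all mice and was not called at any dose. Abcb1a shares 16.3% of its 50-base transcript stretches with Abcb1b, which shares 11.1% of its own with Abcb1a, so reads placed in more than 1 site and left uncounted could have come from either.

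Among conjugate exporters, Abcc4 (MRP4, an exporter of cyclic nucleotides and conjugates) measured 16.9, 17.4 and 18.1 CPM in vehicle mice and 22.4, 24.3 and 23.7 CPM at 30 μg/kg. The groups did not overlap, and the log2 fold change of 0.43 (SE 0.13, edgeR adjusted p = 0.0410) was under the fold minimum. Abcc3 measured 536, 576 and 572 CPM in vehicle mice and 589.6, 594 and 598 CPM at 30 μg/kg, which did not pass (log2 0.08, SE 0.12, edgeR adjusted p = 0.697). Abcc5 and Abcc10, exporters of cyclic nucleotides and of lipophilic anions, had log2 fold changes of 0.28 (SE 0.27) and -0.07 (SE 0.10) at 30 μg/kg.

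The sterol half-transporters Abcg5 and Abcg8, which together return plant sterols and cholesterol to the lumen, lie head to head on chromosome 17. The 109 bases between the RefSeq start of Abcg5 and the more downstream of the 2 RefSeq starts of Abcg8 (chr17:84683012-84683120, read on the strand of Abcg5, GRCm38.p6) hold none of the 3 motifs.
Abcg5 and Abcg8 between starts: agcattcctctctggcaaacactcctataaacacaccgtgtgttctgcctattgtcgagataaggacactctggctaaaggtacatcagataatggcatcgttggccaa

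Abcg5 measured 4.82, 4.22 and 5.79 CPM in vehicle mice and 1.51, 3.43 and 2.24 CPM at 30 μg/kg, with no overlap. Abcg8 measured 4.62, 2.53 and 4.02 CPM in vehicle mice and 1.73, 2.84 and 0.948 CPM at 30 μg/kg, with 1 mouse in the vehicle range. Neither passed, at log2 fold changes of -1.06 (SE 0.47, edgeR adjusted p = 0.145) and -1.02 (SE 0.57, edgeR adjusted p = 0.261). Both were above vehicle on average at 0.1 μg/kg (7.94 and 5.26 CPM). The annotated genes overlap on opposite strands in GENCODE, and how the authors' counting used strand was not given in the sources used here, so reads of the overlap could be assigned to either. Abca1 and Abcg1, the cholesterol exporters of most cells, had log2 fold changes of 0.51 (SE 0.23) and 0.28 (SE 0.21) at 30 μg/kg and were not called.

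A slope over dose rank (vehicle as 0, 30 μg/kg as 8) asked which members followed dose across all 27 mice. It passed for 14 members (35.9% of members), where 23.4% of all genes passed. Of these, 11 rose, where 11.8% of all genes did, and 3 fell, where 11.6% did. By role the 11 were Abcc2 and Abcb1a among pumps, Abcc9 among channel regulators, Abca3, Abca8a and Abca14 of subfamily A, Abcb8 and Abcb10 of the mitochondrial inner membrane, and all 3 translation factors of subfamily F. The 3 that fell were Abcc1, Abcc6 and Abcg5. The direction of Abcc1 turned within index set 1, within set 2, with the index term and with the clock score (0.0051, 0.0043, 0.0042 and 0.025 per step), and that of Abcg5 within set 1 and with the index term (0.095 and 0.019 per step), none of them passing. That of Abcc2 turned with the clock score (-0.0063, edgeR adjusted p = 0.972) and that of Abcf1 within set 1 (-0.0077).

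Abcc2 had the steepest slope, 0.29 log2 units per dose step (SE 0.05, edgeR adjusted p = 9.14e-05), and Abca8a and Abcc9 each had 0.16. The slope of Abcb1a was 0.06 (edgeR adjusted p = 0.00113). Abcg5 fell by 0.14 per step (edgeR adjusted p = 0.0233), and Abcg8, at -0.13, did not pass (edgeR adjusted p = 0.0594).

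The other slopes were small, within 0.02 to 0.04 log2 units per step in size except for Abca14 (0.11) and Abcc6 (-0.07). Abcb10, which serves heme synthesis in mitochondria, measured 36.6, 35.8 and 30.3 CPM in vehicle mice and 40.8, 43.99 and 42.0 CPM at 30 μg/kg, a 1.23-fold difference (log2 0.30, SE 0.08, edgeR adjusted p = 0.0187). Abcb8, a subunit of a mitochondrial potassium channel, measured 35.5, 44.5 and 43.3 CPM against 49.5, 51.7 and 53.3 CPM, a 1.25-fold difference that also missed the p threshold (log2 0.33, SE 0.11, edgeR adjusted p = 0.0532). Both sets were free of overlap, and both differences stayed under the fold minimum.

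Subfamily F passed in all 3 of its members, and 0 of the 3 passed with the index term (edgeR adjusted p = 0.274 to 0.731) or with the clock score (edgeR adjusted p = 0.196 to 0.521). Under these terms the slope was 0.046 and 0.054 for Abcf2 (0.037 without), 0.021 and 0.023 for Abcf3 (0.024 without). For Abcf1 it was 0.012 and 0.020 (0.028 without), and all SEs were wider. Abcf1, which binds initiation factor eIF2, measured 95.7, 97.7 and 88.2 CPM in vehicle mice and 113, 110.3 and 117 CPM at 30 μg/kg. Abcf2 measured 21.4, 20.7 and 21.6 against 25.2, 32.9 and 24.7 CPM, and Abcf3 32.5, 33.7 and 30.7 against 37.6, 39.1 and 36.9 CPM. All 3 genes were without overlap and were 1.21-, 1.30- and 1.17-fold higher than vehicle, with edgeR adjusted p values of 0.0197, 0.0348 and 0.0735. Abce1, the ribosome recycling factor of the sister subfamily, had a log2 fold change of 0.02 (SE 0.14) at 30 μg/kg.

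Abcc1 (MRP1, an exporter of leukotrienes and glutathione conjugates) measured 83.5, 67.4 and 71.0 CPM in vehicle mice and 63.6, 61.8 and 67.2 CPM at 30 μg/kg, just below the vehicle range. Abca3 measured 138, 138 and 129.9 CPM in vehicle mice and 138, 184 and 148 CPM at 30 μg/kg, and the groups overlapped. Abca14, a little studied A member, was at 1.38, 0.843 and 1.08 CPM in vehicle mice (8 to 14 counts) and 1.51, 2.93 and 1.12 CPM at 30 μg/kg, also with overlap. The slope calls of Abca14, Abca3 and Abcc1 depended on single mice. That of Abca14 was lost without vehicle replicate 2 or 3, replicate 3 of 0.03, replicate 1 or 3 of 10 or replicate 2 of 30 μg/kg (edgeR adjusted p = 0.0505 to 0.131). That of Abca3 was lost without vehicle replicate 3, replicate 2 or 3 of 0.01 or of 0.03, replicate 1 of 10 or replicate 2 of 30 μg/kg (edgeR adjusted p = 0.0506 to 0.163), and without the last its slope was 0.015 per step against 0.023 with it. That of Abcc1 was lost without vehicle replicate 1, replicate 2 of 3, replicate 1 of 10 or replicate 1 or 2 of 30 μg/kg (edgeR adjusted p = 0.0507 to 0.0896). Slope calls of Abca8a (without vehicle replicate 1 or replicate 1 or 3 of 30 μg/kg, edgeR adjusted p = 0.0515 to 0.263), Abcf2 (replicate 2 of 30 μg/kg, 0.0557), Abcg5 (replicate 1 or 3 of 30 μg/kg, 0.0617 and 0.0544) and Abcc6 (replicate 3 of 30 μg/kg, 0.05003) were lost as well. Without replicate 3 of 30 μg/kg the Abca8a slope was 0.08 per step against 0.16 with it, and with the muscle and fibroblast score 0.07 (edgeR adjusted p = 0.327), not passing.

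**Figure D5:**
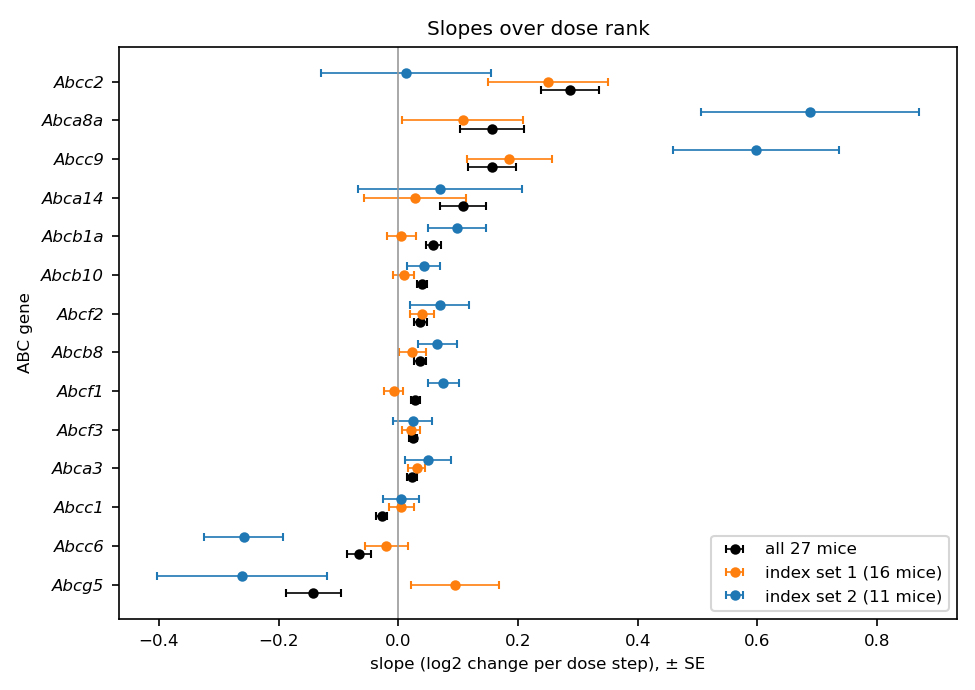
Slopes over dose rank (log2 change per dose step, with SE) of the 14 ABC genes that passed in all 27 mice (black), and the same slopes within index set 1 (16 mice, orange) and index set 2 (11 mice, blue). Abcc2 has a slope of 0.25 in set 1 and 0.01 in set 2, whereas Abca8a and Abcc9 are steepest in set 2, at 0.69 and 0.60. The set 2 mice at 1 μg/kg had the lowest muscle and fibroblast scores of any mouse. The part of these scores in the slopes of Abca8a and Abcc9 within set 2 was not tested.

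Within index sets the picture depended on the gene. In set 1, which holds the lower doses, 0 members passed, where 0.00589% of all genes did, and 11 of the 14 slopes kept their sign. In set 2, which runs from 1 to 30 μg/kg, 13 of the 14 kept their sign and 2 of them passed, Abcc9 (0.60, SE 0.14, edgeR adjusted p = 0.0346) and Abcc6 (-0.26, SE 0.07, edgeR adjusted p = 0.0496), along with Abcc4 and Abcg2, where 3.06% of all genes passed. Abcc2 had a slope of 0.01 (SE 0.14) in set 2. The set 2 mice at 1 μg/kg had muscle and fibroblast scores of 1.76 and 1.79, the lowest of any mouse. At 30 μg/kg these scores were 4.75, 3.20 and 5.32. Their part in the set 2 slopes of Abca8a and Abcc9 was not tested. With a term for the index set 0 of the 14 passed, where 0.0667% of all genes did, and with the clock score as a covariate 0 passed, where 0.236% of all genes did. Under each of the terms 12 of the 14 slopes kept their sign and 5 of these were at least as steep as without it (Abca3, Abca8a, Abcc6, Abcc9 and Abcf2), with a wider SE. The slope of Abcc9 was 0.29 (SE 0.07, edgeR adjusted p = 0.0761) with the index term and 0.25 (SE 0.08, edgeR adjusted p = 0.139) with the clock score. That of Abcc6 was -0.07 (SE 0.04, edgeR adjusted p = 0.332) and -0.13 (SE 0.04, edgeR adjusted p = 0.109). Between 30 and 3 μg/kg, both in set 2, 0 of 39 members were called, where 0.461% of all genes were, and 3 members had an unadjusted p under 0.05. Higher were Abcg2 (log2 0.57, SE 0.17) and Abca8a (1.51, SE 0.52), where 5.98% of all genes were, and lower was Abcc6 (-0.58, SE 0.20), where 4.99% were, so the members' count was no larger than the general share. DESeq2 called 0 there as well.

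Members also varied among mice within the lower doses. A posterior Hox score was the mean log2 CPM of 4 Hox genes that are high in distal colon, Hoxa13, Hoxb13, Hoxd11 and Hoxd13. Of these, Hoxd11 and Hoxd13 were low, averaging 0.859 and 3.04 CPM in vehicle mice. The score ran from 0.64 to 4.10 in the 15 mice at vehicle to 0.3 μg/kg. Over these 15 mice, 5 of 39 members passed both Pearson and Spearman permutation tests against it (100000 permutations, adjusted over all genes tested for each coefficient), where 3.95% of all genes did. In all, 4 correlations were computed per gene, 2 for each of 2 scores.

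Abca12 (r = -0.82, permutation p = 0.00012, adjusted p = 0.00593, and rho = -0.78, permutation p = 0.00088, adjusted p = 0.0300), Abcc5 (r = -0.85, permutation p = 8e-05, adjusted p = 0.00453, and rho = -0.78, permutation p = 0.00084, adjusted p = 0.0292) and Abca2 (r = -0.79, permutation p = 0.00072, adjusted p = 0.0178, and rho = -0.80, permutation p = 0.0008, adjusted p = 0.0282) were lower where the score was high. Abca13 (r = 0.80, permutation p = 0.0004, adjusted p = 0.0122, and rho = 0.80, permutation p = 0.00046, adjusted p = 0.0217) and Abcb4 (r = 0.78, permutation p = 0.0008, adjusted p = 0.0191, and rho = 0.85, permutation p = 0.00016, adjusted p = 0.0121) were higher. After removing the 2 mice with the most extreme scores, taken from the median, Pearson's r became -0.81 for Abca12, -0.85 for Abcc5, -0.71 for Abca2, 0.80 for Abca13 and 0.70 for Abcb4. All 15 mice belong to index set 1. In vehicle mice alone Abca12, whose loss in skin causes ichthyosis, measured 136, 206 and 274 CPM at Hox scores of 3.95, 2.68 and 2.46, lowest where the score was highest. Over the 8 doses log2 fold changes ran from -0.45 to 0.19 for Abca12, from -1.18 to 0.30 for Abca13 and from -0.74 to 0.08 for Abcb4. None of the 5 was called at any dose or in the slope.

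Against the muscle and fibroblast score over the same 15 mice, 1 member passed both tests, where 0.176% of all genes did. It was Abcc9 (r = 0.87, permutation p = 2e-05, adjusted p = 0.0132, and rho = 0.90, permutation p = 2e-05, adjusted p = 0.0165), with r = 0.83 without the 2 farthest mice. Abca8a and Abca9 did not pass.

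Abcd2, a peroxisomal importer of very long-chain fatty acids, varied widely between mice of 1 group. It measured 0.689, 1.37 and 1.08 CPM in vehicle mice, and 6.36, 1.39 and 4.27 CPM at 0.01 μg/kg. At 30 μg/kg it measured 1.58, 0.920 and 5.95 CPM. All 3 mice at 0.01 μg/kg were above vehicle, the lowest of them barely, while at 30 μg/kg 1 mouse lay in the vehicle range, and no dose was called. Adipocyte markers, which summed to 1.57 to 13.5 CPM in vehicle mice, summed to 11.9 to 104 CPM at 30 μg/kg, and their part in these values was not tested. Abcd3, also peroxisomal, had a log2 fold change of 0.24 (SE 0.15) at 30 μg/kg.

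The remaining members were not called at any dose or in the slope. Abca7, a phospholipid transporter, held log2 fold changes within -0.00 to 0.16 over the 8 doses. Abcb6 and Abcb9, of endolysosomal membranes, stayed within -0.15 to 0.17 and -0.06 to 0.27, and Abcb6 shares 2840 of its 5679 50-base stretches with another gene model, Gm29253. Abca5 was below vehicle at each of the 8 doses (-0.67 to -0.16) and Abca2 above it (0.03 to 0.44), without passing at any. Abcc8, the pancreatic sulfonylurea receptor SUR1, ranged from -0.65 to 0.07.

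A list of 3 ABC genes that carry other symbols was also tested. Cftr, the chloride channel of the family, averaged 258 CPM in vehicle mice and 201 CPM at 30 μg/kg, not called (log2 -0.36, edgeR adjusted p = 0.0751), though its slope passed (-0.04, edgeR adjusted p = 0.0318). Tap1 and Tap2, the peptide transporters of antigen presentation, had log2 fold changes of -0.14 and -0.00.

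Genes that work beside the members gave mixed counts at 30 μg/kg, where 2.95% of all genes were called higher and 3.21% lower. Of 10 tested partner proteins 3 rose (Kcnj8, Apoa1 and Apoe, the last 2 acceptors of exported lipid) and 0 fell. Of 13 genes of bile acid and sterol handling 0 were called, and 6 had log2 fold changes above 0. Of 8 genes listed for xenobiotic sensing 1 rose, Nfe2l2 (from 194 to 302 CPM, log2 0.64), which encodes NRF2, a stress-responsive transcription factor and not a receptor. Of 11 SLC drug carriers 1 rose, Slc22a5 (from 30.3 to 50.1 CPM, log2 0.73). The slope passed for 4 of the 10 partners, 1 of the 13, 4 of the 8 and 5 of the 11, all upward, where 11.8% of all genes passed upward.

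RefSeq promoter windows of 300 bases (GRCm38.p6) were at hand for 30 of the 39 members. The dioxin response element core GCGTG was found in 9 of the 30 windows (30.0%), beside 32.4% of all 32851 windows. It was in those of Abca3, Abca5, Abca13, Abcb4, Abcc4, Abcd3, Abce1, Abcf1 and Abcf3. The E-box CACGTG was in 5 (16.7%, beside 7.15% of all), those of Abca1, Abca8a, Abca8b, Abcc4 and Abcf1, and the D-box TTANGTAA in 0, beside 2.32% of all. These are matches of letters on either strand, GCGTG and CACGTG can share letters, and a match is no evidence of binding. A window with no match lacks these letters only.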

How the data were processed

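Processed data were 1 table per mouse, 27 in all, of read counts per gene that the authors deposited without normalization, in the layout of HTSeq-count. The submitters' processing notes name FastQC 0.11.3, Trimmomatic 0.33, TopHat2 2.1.0, SAMtools 1.2.0, HTSeq 0.6.1 and DESeq, on GRCm38. The annotation release and use of strand are not given in the sources used here. Reads with more than 1 alignment (30.7 to 37.1% of table totals) and with no feature (29.1 to 33.3%) were not assigned to genes and were left out, so near-identical copies can be undercounted.

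In edgeR 4.0.16 (R 4.3.3), 16496 genes passed filterByExpr at a minimum count of 10, libraries were scaled by TMM, and 1 quasi-likelihood model (glmQLFit) held all 9 groups. P-values were adjusted over all genes, and SE is the log2 fold change over the root of F. CPM uses TMM-scaled library sizes, and symbols, exon lengths and coordinates are from GENCODE M21. Correlations used log2(CPM + 0.5). The log2 scores used a prior count of 2. Members named were those called at any dose or in the slope, the 10 with the smallest p at 30 μg/kg and the 5 with the highest level per kilobase, with the others given by range. Members, gene lists and tests were chosen with earlier results of these data known. Replicates were numbered in accession order, and p-values measure the spread between the mice of a group. All 27 replicate pairs differed by more than counting noise (chi-square per degree of freedom 5.32 or more). Alternatives were RLE factors, DESeq2 1.42.0, limma 3.58.1 voom, no filter, only the groups compared, an index term, 3 score covariates and each mouse left out. Some family genes are not reported here.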

Additional observations from a re-analysis of the deposited data

How the results depend on the processing

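The counts of members called are compared here. Percentages, where given, are the share of all genes called by the same fit. No such share is given for RLE factors, DESeq2, the fit without the filter, the Hox score or the fits without 1 mouse. The counts of members from those fits therefore stand without a background. At 30 μg/kg (4 members) the count was 0 by limma voom, called at a posterior of 0.8 or more (1.32%). It was 2 (Abcc2 and Abcc6) by voom at the adjusted p and fold of the edgeR test (5.10%, chosen after seeing the data). With an index term, which rests on the 3 mice at 1 μg/kg, it was 2 (Abca9 and Abcc9, 4.43%). It was 1 with the clock score (Abcg2, 2.56%) and 1 with the muscle and fibroblast score (Abcc2, 3.61%). By adjusted p alone it was 9, 8 of them higher, where 6.00% of all genes were higher and 5.02% lower. It kept the same 4 genes with RLE factors, DESeq2, no filter and the Hox score, and 3 of them, all but Abca8a, with only the groups compared (4.43%). At 10 and 3 μg/kg (1 member each) the count was 0 with an index term (0.352 and 0.0121%), under which the Abcc2 log2 fold change was larger (3.03 and 2.55) and its SE wider, and 0 with the clock score (0.139 and 0.0424%), and at 3 μg/kg also 0 by voom at either criterion. At 0.01 to 1 μg/kg (0 members) it was 1, Abcc2, by DESeq2, without the filter and with the Hox score. The slope (14 members) gave 0 with an index term and 0 with the clock score (12 of the 14 kept their sign under each, 5 of them as steep or steeper), and 0 within index set 1 and 4 within set 2. Slope calls were also lost by voom (Abca3, Abca8a and Abca14), without the filter (Abca3, Abca14 and Abcc1) and with the muscle and fibroblast score (Abca8a and Abcc6). Leaving out 1 mouse gave 1 to 5 members at 30 μg/kg, 1 to 2 at 10, 0 to 1 at 3, 0 to 1 at 0.01 to 1 μg/kg, 10 to 18 slopes and 0 to 0 between 30 and 3 μg/kg. At 30 μg/kg the count was 1 without vehicle replicate 1 or 3 or replicate 3 of 30 μg/kg and 2 without vehicle replicate 2; at 10 μg/kg it was 2 (Abcc6 added) without replicate 1 of that dose; and at 0.01 to 1 μg/kg it was 1 (Abcc2) without replicate 1 or 3 of 0.01, replicate 2 of 0.3, of 1 or of 3 μg/kg.

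Called values that changed sign did so mainly with the clock score. With that covariate the Abcc2 log2 fold change at 30 μg/kg was -0.13 and the slopes were -0.0063 for Abcc2 and 0.025 for Abcc1. When the 0.01 μg/kg mouse with the high clock score was also left out (an alternative chosen after seeing the data, as were the within-set slopes), 0 members were called at 30, 10 and 3 μg/kg and 0 slopes, Abcc2 was -2.10, -1.60 and -2.45 at 3, 10 and 30 μg/kg (SE 1.36 to 1.37), Abca8a -1.84 and Abcc9 -1.08 at 30 μg/kg, and the slopes of Abca14, Abcc1 and Abcc2 were -0.0067, 0.022 and -0.074. With an index term the slopes of Abcc1 and Abcg5 were 0.0042 and 0.019. Within set 1 the slopes of Abcc1, Abcf1 and Abcg5 were 0.0051, -0.0077 and 0.095, and within set 2 that of Abcc1 was 0.0043. The cause was not tested.

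No paired analysis was possible because replicate numbers were given in accession order and no label links mice across groups. The 10 members lowest per kilobase, which include 3 of the 4 called at 30 μg/kg, had 7 to 32 counts in each vehicle mouse.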
